A study of Mus musculus with 6 samples.

Results

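The integrins, the laminins and the other basement membrane genes are the adhesion system that ties heart cells to the sheet of matrix around them. The genes described here were taken by symbol from the deposited table: the integrin alpha and beta chains, the laminin chains, both nidogens, perlecan, agrin, dystroglycan and 6 proteins that link integrins to actin. The symbols matched 41 of the 13384 genes in the table, namely 14 integrin alpha chains, 7 integrin beta chains, 9 laminin chains, 4 nidogens and basement membrane proteoglycans, dystroglycan and 6 linkers. The rule itself used no levels, though it was set with earlier results of these data known. Polyadenylated RNA of the left ventricle was sequenced from 3 adult mice with a global cytoglobin deletion (Cygb(-/-)) and from 3 wild-type littermates (Cygb(+/+)), 1 library per mouse. All 6 mice, the wild type included, carried a pump under the skin that delivered angiotensin II (1.5 mg/kg/day) over 2 weeks, and mice without this pressor hormone were not analysed here. Cytoglobin is a globin of fibroblasts and vascular wall cells. It was not analysed here, so the genotypes rest on the labels.

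Laminins are secreted trimers of an alpha, a beta and a gamma chain. They polymerise at the cell surface and are joined to the collagen IV network by nidogens, while perlecan and agrin add heparan sulfate chains. Heart muscle cells hold this layer through dystroglycan and through integrins, which pair 1 alpha with 1 beta chain and couple through talin, vinculin and the complex of ILK, PINCH and parvin to the actin skeleton. In the heart this costamere linkage carries force sideways out of the sarcomere, and fibroblasts, endothelial cells and leukocytes use other integrins for collagen, fibronectin and cell-cell contacts.

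The libraries held 23190864 to 30354857 counts, and the members had 29 to 20210 counts in a library. All 10 ventricular muscle markers listed were measured, with a summed level of 73460 to 83728 CPM (counts scaled to a common library size, with TMM factors) in the knockout and 72895 to 89950 CPM in the wild type. Wild-type replicates 1 and 2 stood apart in other markers. The 5 atrial muscle genes summed to 494 to 568 CPM in the knockout and to 3042, 2110 and 703 CPM in wild-type replicates 1, 2 and 3. Replicate 1 was the highest library in all 5 of them, whereas in replicate 2 Nppa alone, which stressed ventricles also express, made up 2058 CPM and the other 4 lay below replicate 3. The 10 fibroblast genes summed to 2462 to 2785 CPM in the knockout, against 2928, 4696 and 2862 CPM in wild-type replicates 1, 2 and 3.

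No member of the adhesion system passed the test between the genotypes. The genes with the smallest p-values were the muscle laminin chain Lama2, the leukocyte chains Itgb2 and Itga4 and the collagen receptor chain Itga1, all at higher levels in the knockout, and the vitronectin receptor chain Itgb5, at a lower level. Their log2 fold changes (knockout over wild type) were 0.54 (SE 0.15), 0.70 (SE 0.21), 0.81 (SE 0.26), 0.48 (SE 0.16) and -0.41 (SE 0.14). The 11 core members were Itgb1, Itga5, Itga7, Lama2, Lama4, Lamb2, Lamc1, Dag1, Vcl, Tln1 and Tln2. Core log2 fold changes ran from -0.37 for Itga5 to 0.54 for Lama2.

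With edgeR's quasi-likelihood test, 0 of 41 members had an adjusted p under 0.05, where 0.112% of all genes did. The smallest edgeR adjusted p of a member was 0.110, for Lama2. At an unadjusted p under 0.05 in that fit, 11 members stood out (26.8%, against 19.2% of all genes). Of them 7 were higher in the knockout (17.1%, against 10.2% of all genes) and 4 were lower (9.76%, against 8.94%). The higher ones were Lama2, Itgb2, Itga4, Itga1, Itgax, Lims1 and Dag1, and the lower ones Itgb5, Itga11, Itgb3 and Itga5. Groups did not overlap for 7 members higher in the knockout, where 11.8% of all genes did so, and for 3 lower ones, where 10.5% did so. The median log2 fold change of the 41 members was 0.11, beside -0.0045 over all genes, with 24 above 0 and 17 below. Standard errors of the members ran from 0.11 to 0.32, which limits what could be called. DESeq2 called 1 member, Lama2 (log2 fold change 0.54, DESeq2 adjusted p = 0.0414), where it called 4.71% of all genes. Without wild-type replicate 2, edgeR called 5 members, Lama2, Itgb2, Itga1, Lims1 and Itgb1, all higher in the knockout. That fit called 13.6% of all genes and 12.2% of the members.

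**Figure D1:**
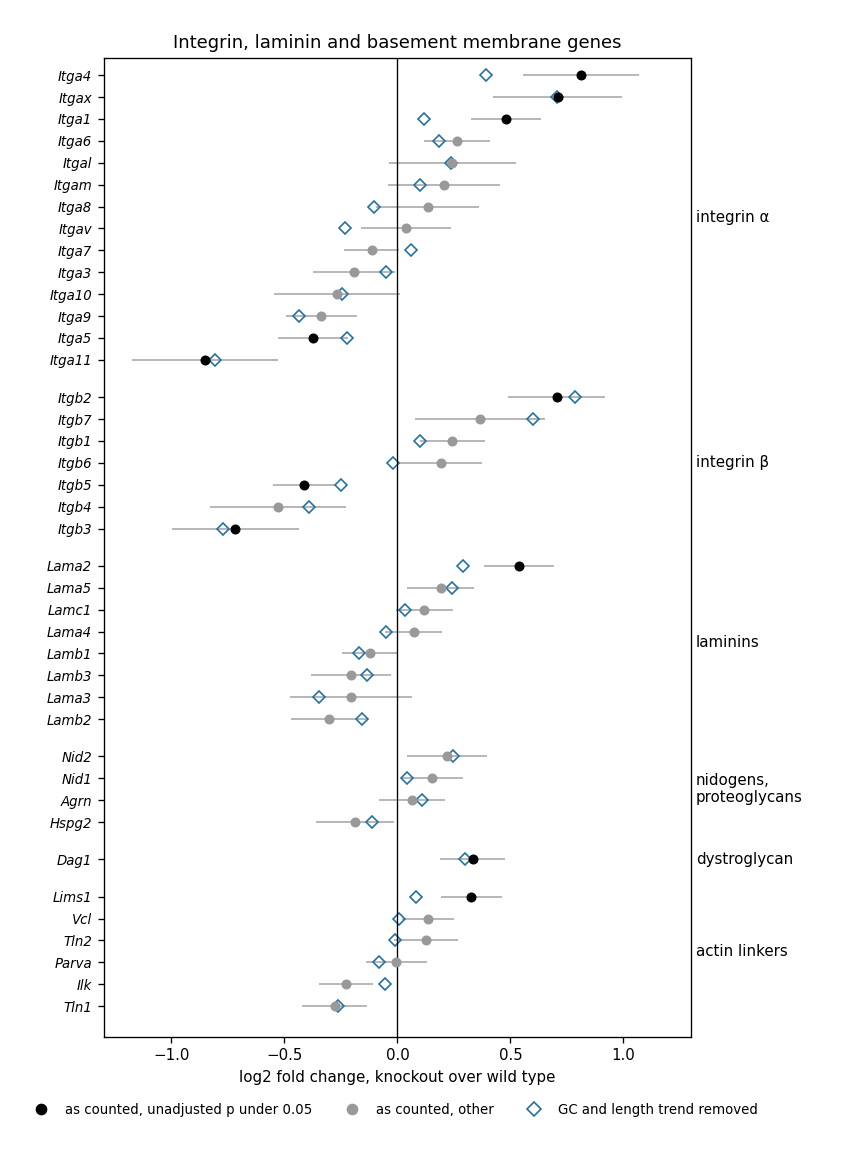
Log2 fold change of 40 of the 41 members, knockout over wild type, by role. Circles are edgeR estimates with bars of 1 standard error (black at an unadjusted p under 0.05, grey otherwise), and open diamonds the estimates without the composition trend described in the text. The estimates run from -0.85 for Itga11 to 0.81 for Itga4, and the diamonds of Itga4, Itga1, Lama2 and Lims1 lie closer to 0 than their circles.

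Transcript composition moved with these results. Over the 13106 genes with a GENCODE M21 transcript, the log2 fold change went down with GC content (Spearman's rho -0.53, a description over genes that share the same 6 libraries). The 1311 genes lowest in GC content had a median log2 fold change of 0.25 and the 1311 highest a median of -0.30. The 41 members showed the same relation (rho -0.50). With transcript length the fold change went up over all genes (rho 0.34), whereas over the members rho was -0.064. Member transcripts had a median length of 5267 bases, against 3145 over all genes. The 7 members higher at an unadjusted p under 0.05 had 40.7% to 53.1% GC and the 4 lower ones 52.1% to 57.5%. Among the 20 members under the members' median GC content 15 were above 0, and among the 21 at or over it 9 were.

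When each library's own trend on GC content and transcript length (the composition trend) had been removed, the median of the members was -0.012, and 4 members were higher (9.76%, against 6.52% of all genes) and 3 lower (7.32%, against 6.97%) at an unadjusted p under 0.05. The higher ones were Lama2, Itgb2, Itgax and Dag1, and the lower ones Itgb3, Itga9 and Tln1. In that fit also 0 members had an edgeR adjusted p under 0.05, where 0.382% of all genes did. Itga1 was then at 0.12, Lims1 at 0.081 and Itga4 at 0.39, all more than 1.5 times smaller than as counted. The groups then did not overlap for 6 members higher in the knockout, where 9.27% of all genes did so, and for 4 lower ones, where 8.91% did so. Of the 10 members that did not overlap as counted, Lama2, Itgb2, Itgax and Itgb3 still did not. Itga1, Itga4, Lims1, Vcl, Itgb5 and Ilk overlapped after the removal. Conversely, Dag1, Itga7, Itga9, Itgb7, Lamb1 and Tln1 overlapped as counted and did not after the removal. The sign turned for 6 members, namely Itga7, Itga8, Itgav, Itgb6, Lama4 and Tln2. After the removal, rho over the members was -0.21 with GC content and -0.17 with transcript length. Over all genes these were -0.0027 and 0.028.

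**Figure D2:**
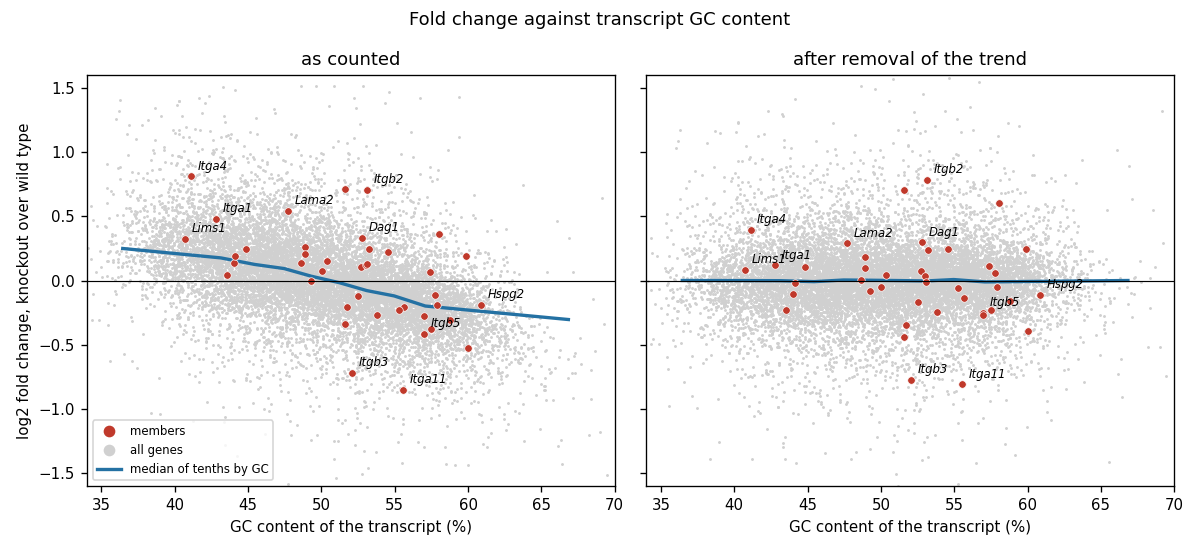
Log2 fold change (knockout over wild type) against the GC content of the longest protein-coding transcript, as counted (left) and without the composition trend (right). Red points are the 41 members, grey points all genes, and the line joins the medians of 10 equal groups of all genes by GC content; a few genes beyond the axes are not drawn. As counted, the line goes down from 0.25 to -0.30, and it lies near 0 after removal.

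Of the 41 members 28 had an entry in the RefSeq promoter table (GRCm38.p6), which was cut here to the 250 bases before each annotated start. The windows of 3 members that stood out, for laminin, leukocyte and vitronectin binding, are shown 5′ to 3′ on the gene's own strand, with every GC box (GGGCGG or CCGCCC) and every AP-1 site (TGACTCA or TGAGTCA) in capitals.
Lama2, chr10:27616943-27617192, minus strand: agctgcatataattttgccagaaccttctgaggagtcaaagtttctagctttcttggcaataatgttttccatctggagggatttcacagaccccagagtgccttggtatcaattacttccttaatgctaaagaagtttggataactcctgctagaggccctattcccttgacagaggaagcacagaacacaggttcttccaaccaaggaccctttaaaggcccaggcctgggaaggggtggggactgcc
Itgax, chr7:128129300-128129549, plus strand: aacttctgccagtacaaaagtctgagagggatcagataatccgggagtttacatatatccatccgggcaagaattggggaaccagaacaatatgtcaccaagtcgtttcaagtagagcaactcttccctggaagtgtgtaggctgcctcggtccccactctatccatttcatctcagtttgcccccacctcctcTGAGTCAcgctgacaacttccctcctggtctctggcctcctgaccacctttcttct
Itgb5, chr16:33829415-33829664, plus strand: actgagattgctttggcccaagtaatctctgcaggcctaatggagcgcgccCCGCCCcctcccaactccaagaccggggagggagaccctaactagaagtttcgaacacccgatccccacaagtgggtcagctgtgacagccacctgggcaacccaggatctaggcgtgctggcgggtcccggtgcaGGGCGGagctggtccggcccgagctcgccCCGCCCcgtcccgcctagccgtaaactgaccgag
Lama2 held neither motif, Itgax 1 AP-1 site and Itgb5 3 GC boxes. The windows had 47.2% GC for Lama2, 50% for Itgax and 65.2% for Itgb5. A GC box was in 18 of the 36 windows of the 28 members and in 33.0% of the 32536 distinct windows in the table, and an AP-1 site in 1 of the 36 (2.78%) and in 4.45% of all. The Lama2 window starts from the RefSeq start, which lies inside the longer GENCODE gene. A match describes the letters only.

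The integrin alpha chains choose the ligand. Per kilobase of transcript, Itga7, which with beta 1 forms the laminin receptor of muscle, had the highest level of the 14, at 45.2 CPM per kilobase in the knockout and 48.9 in the wild type. Itga5, the fibronectin receptor chain, followed in the wild type, at 16.8 in the knockout and 21.8 in the wild type, and Itga6, another laminin receptor chain, was at 16.8 in the knockout and 14.0 in the wild type. In the knockout the libraries of Itga5 and Itga6 were interleaved, so the 2 could not be ordered there, while in the wild type every library of Itga5 lay above every one of Itga6. At the low end, beside Itga10 (0.52 in the knockout and 0.63 in the wild type), the leukocyte chains Itgax, Itga4 and Itgal lay between 0.46 and 0.58 CPM per kilobase in the knockout and between 0.32 and 0.39 in the wild type. Among beta chains, Itgb1, the partner of most alpha chains, was at 157 CPM per kilobase in the knockout and 133 in the wild type, and Itgb5 was next at 40.5 in the knockout and 53.9 in the wild type.

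**Figure D3:**
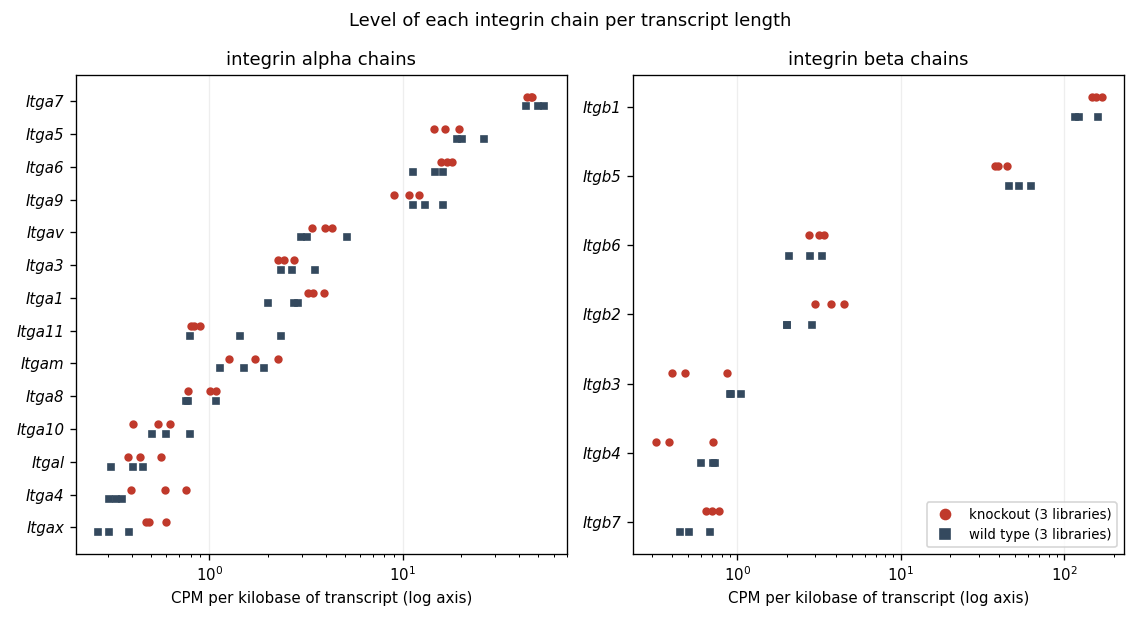
TMM-scaled CPM per kilobase of transcript (log axis) of the 14 integrin alpha and 7 integrin beta chains in each library; circles are the 3 knockout libraries and squares the 3 wild-type ones. Itga7 and Itgb1 stand at the top, and the chains of leukocytes, such as Itgax, Itgal and Itgb7, near the bottom.

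Of the 3 collagen-binding partners of beta 1 among the members, Itga1 was at a higher and Itga11 at a lower level in the knockout. Itga1, found on smooth muscle, pericytes and endothelium, was at 43.1, 35.6 and 37.5 CPM in knockout replicates 1, 2 and 3, against 29.9, 31.3 and 22.2 CPM in wild-type replicates 1, 2 and 3. The groups did not overlap (log2 fold change 0.48, SE 0.16, edgeR adjusted p = 0.138). Its transcript has 42.8% GC, and without the composition trend the value was 0.12 (edgeR adjusted p = 0.705). Itga11, the collagen receptor chain of activated fibroblasts, was at 4.12, 3.995 and 4.45 CPM in the knockout, against 7.12, 11.7 and 3.96 CPM in the wild type. Only wild-type replicates 1 and 2 lay above the knockout libraries, and wild-type replicate 3 lay just below them (-0.85, SE 0.32, edgeR adjusted p = 0.191). Itga11 was highest in wild-type replicate 2, the library with the highest fibroblast sum, and without that library it was at -0.39 (edgeR adjusted p = 0.329). In bulk tissue, fewer cells of a type and less RNA per cell cannot be told apart. The part of fibroblast content in this value was not tested. Itga2, another collagen-binding partner of beta 1, was not analysed here. Itga10, a collagen receptor chain best known from cartilage, was at -0.27 (SE 0.28), and 33.5% of its exonic bases are shared with Gm42957 on the same strand, so its reads may be split.

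All 4 laminin receptor chains had overlapping groups. Itga7 was at 176, 184 and 186 CPM in the knockout, against 216, 174 and 199 CPM in the wild type. The groups overlapped (-0.11, SE 0.12, edgeR adjusted p = 0.633), and without the composition trend the sign turned (0.059) and the groups did not overlap. Itga6, on endothelium and other cells, was at 0.26 (SE 0.15), and Itga3, a chain of epithelial and other cells, at -0.19 (SE 0.18). Itgb4, which pairs with alpha 6 in hemidesmosomes, was at 1.96, 4.41 and 2.38 CPM in the knockout and 4.405, 4.497 and 3.74 CPM in the wild type. Knockout replicate 2 lay among the wild-type libraries and the other two below them (-0.53, SE 0.30, edgeR adjusted p = 0.352).

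The receptors that read the RGD sequence of fibronectin and vitronectin held 3 of the 4 lower members, Itgb5, Itgb3 and Itga5. Itgb5, which with alpha v binds vitronectin and takes part in the activation of latent TGF-beta, was at 128, 147 and 124 CPM in the knockout, against 173, 206 and 151 CPM in the wild type. The groups did not overlap (-0.41, SE 0.14, edgeR adjusted p = 0.151), and the value was -0.25 without the composition trend (edgeR adjusted p = 0.520), where the groups overlapped. Itgb3, the partner of alpha v on activated vessels and of alpha IIb on platelets, was at 4.98, 2.29 and 2.78 CPM in the knockout, against 6.05, 5.31 and 5.21 CPM in the wild type. All knockout libraries lay below all wild-type ones, with knockout replicate 1 close to them (-0.72, SE 0.28, edgeR adjusted p = 0.196). Without that library Itgb3 was at -1.12 (edgeR adjusted p = 0.174), and without the composition trend it was at -0.77.

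Itga5, which pairs with beta 1 as the main fibronectin receptor, was at 63.3, 85.3 and 72.3 CPM in the knockout, against 115, 83.0 and 88.1 CPM in the wild type. Knockout replicate 2 lay above wild-type replicate 2, so the groups overlapped (-0.37, SE 0.16, edgeR adjusted p = 0.219). With wild-type replicate 1 left out, Itga5 was at -0.22 (edgeR adjusted p = 0.499), and without the composition trend at -0.23. The shared partner Itgav was at 0.039 (SE 0.20), Itga8, the nephronectin receptor chain, at 0.13 (SE 0.23), and Itgb6, an epithelial partner of alpha v, at 0.19 (SE 0.18). Without the composition trend these 3 had the other sign, with Itgav at -0.23, Itga8 at -0.10 and Itgb6 at -0.021. Itga9, a receptor chain for tenascin C and other ligands, was at -0.34 (SE 0.16), and at -0.44 without the composition trend. Itgb1 itself was at 643, 561 and 593 CPM in the knockout, against 441, 611 and 467 CPM in the wild type. Wild-type replicate 2 lay within the knockout range, and the other two wild-type libraries below it (0.24, SE 0.14, edgeR adjusted p = 0.371). It passed when wild-type replicate 2 was left out (0.41, edgeR adjusted p = 0.0353), and without the composition trend it was at 0.10.

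**Figure D4:**
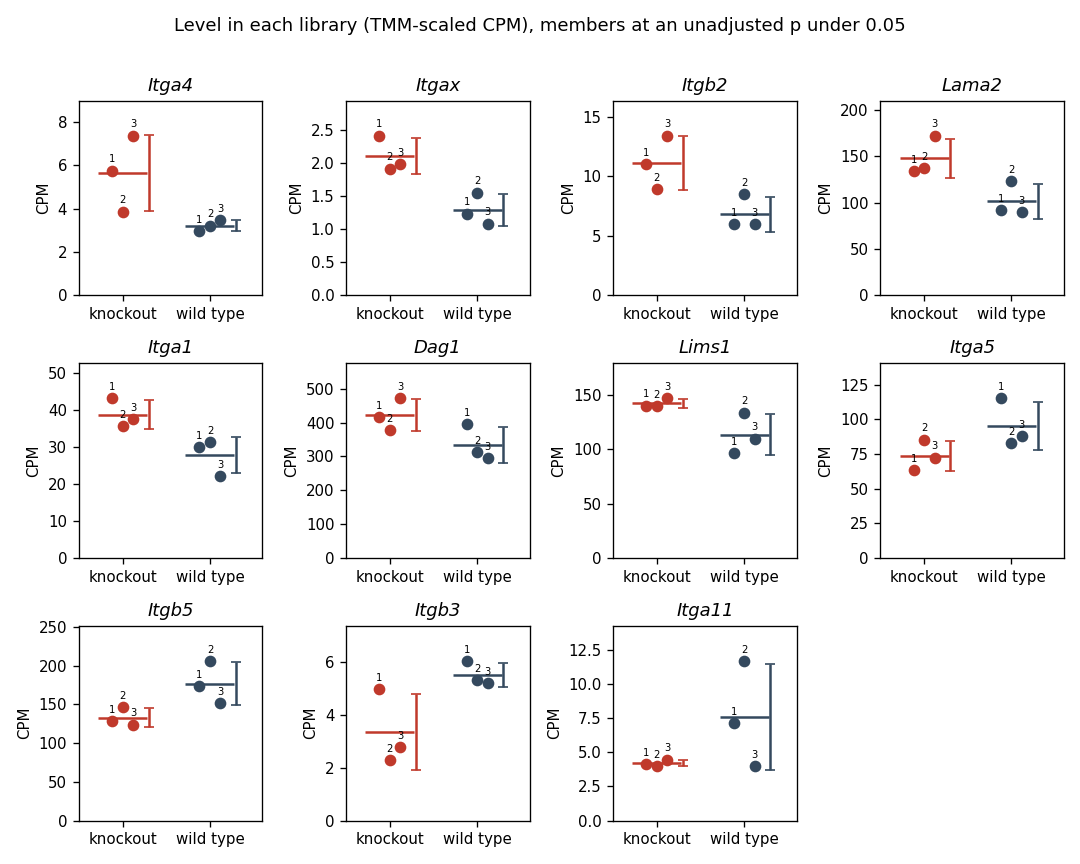
TMM-scaled CPM in each library for the 11 members at an unadjusted p under 0.05, knockout left and wild type right; numbers mark the replicate, lines the group mean and bars 1 SD (n = 3 each). Itga1, Itga4, Itgax, Itgb2, Lama2 and Lims1 do not overlap upward, Itgb5 and Itgb3 do not overlap downward, and Dag1, Itga5 and Itga11 overlap.

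The 6 measured chains of leukocytes all lay above 0. The list they came from also holds Itga2b, a platelet chain that the symbol rule did not take, at -0.69, and the median of its 7 measured genes was 0.36, and 0.39 without the composition trend. Itgb3, the partner of Itga2b on platelets, is not on that list and was below 0 as well. Itgb2, the common beta chain of leukocyte adhesion, was at 11.0, 8.91 and 13.4 CPM in the knockout, against 5.97, 8.53 and 5.96 CPM in the wild type. The groups did not overlap, and knockout replicate 2 lay close to wild-type replicate 2 (0.70, SE 0.21, edgeR adjusted p = 0.121). Without the composition trend Itgb2 was at 0.78 (SE 0.22, edgeR adjusted p = 0.157). Itgax, the beta 2 partner on dendritic cells and some macrophages, was at 2.41, 1.91 and 1.98 CPM in the knockout, against 1.24, 1.55 and 1.08 CPM in the wild type. Again the groups did not overlap (0.71, SE 0.29, edgeR adjusted p = 0.207), and the value was 0.70 without the composition trend.

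Itga4, which with beta 1 binds VCAM-1, was at 5.76, 3.87 and 7.36 CPM in the knockout, against 2.96, 3.22 and 3.47 CPM in the wild type. The groups did not overlap and the knockout libraries were spread wide (0.81, SE 0.26, edgeR adjusted p = 0.132); without the composition trend the value was 0.39 (edgeR adjusted p = 0.510). The other beta 2 partners, Itgam (0.21, SE 0.25) and Itgal (0.24, SE 0.28), and the lymphocyte chain Itgb7 (0.36, SE 0.29) had standard errors from 0.25 to 0.29. For Itgam, 68.7% of the exonic bases are shared with Gm49368 on the same strand, so its reads may be split. All 8 macrophage markers listed were measured, 6 above 0 and 2 below, with a median log2 fold change of 0.21. They summed to 406 to 416 CPM in the knockout and 320 to 399 CPM in the wild type. Of 8 lymphocyte markers 2 were measured, at sums of 1.31 to 2.12 CPM in the knockout and 1.56 to 2.52 CPM in the wild type, and of 5 neutrophil markers 2, at 2.58 to 4.78 CPM in the knockout and 2.68 to 5.001 CPM in the wild type. The part of leukocyte number in the integrin values was not tested.

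Among the laminins, the alpha 2 chain of muscle was at a higher level in the knockout, and the other chains had log2 fold changes between -0.30 and 0.19. Lama2, the alpha chain of laminin-211, whose loss causes muscular dystrophy, was at 134, 137 and 172 CPM in the knockout, against 91.7, 123 and 89.6 CPM in the wild type. The groups did not overlap; wild-type replicate 2 was the nearest to the knockout (0.54, SE 0.15, edgeR adjusted p = 0.110). Its alternatives gave edgeR, limma or DESeq2 adjusted p-values from 0.00883, without wild-type replicate 2, to 0.462, without knockout replicate 3. Without the composition trend, Lama2 was at 0.29 (SE 0.11, edgeR adjusted p = 0.291) and the groups still did not overlap. Lama4, an alpha chain of endothelial basement membranes, was at 101, 113 and 125 CPM in the knockout, against 116, 108 and 98.2 CPM in the wild type (0.071, SE 0.13). Lama5, the other endothelial alpha chain, was at 149, 157 and 209 CPM in the knockout, against 163, 134 and 155 CPM in the wild type (0.19, SE 0.15). Both overlapped, and knockout replicate 3 was the highest library of each.

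Lamb2, the beta chain of the neuromuscular and mature vascular laminins, was at 293, 363 and 400 CPM in the knockout, against 538, 354 and 410 CPM in the wild type. Wild-type replicate 1 lay far above all other libraries, and wild-type replicate 2 lay among the knockout ones (-0.30, SE 0.17, edgeR adjusted p = 0.336). Without replicate 1 the value was -0.12, and without the composition trend it was -0.16. Replicate 1 also had the highest atrial muscle sum, whose part in the value was not tested. Lamb1 was at -0.12 (SE 0.12), and Lamc1, the gamma chain of most laminins, at 274, 272 and 309 CPM in the knockout and 279, 279 and 230 CPM in the wild type (0.12, SE 0.13). The epithelial chains Lama3 (-0.21, SE 0.27) and Lamb3 (-0.20, SE 0.18) were low, with Lamb3 at 8.37, 8.66 and 10.4 CPM in the knockout and 11.8, 8.99 and 10.8 CPM in the wild type. Per length, Lama3 was at 0.36 CPM per kilobase in the knockout and 0.42 in the wild type, and Lamb3 at 1.88 in the knockout and 2.17 in the wild type.

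Shares of the alpha chains were worked out per kilobase after the values had been seen, and carry no test. Lama2 made up 31.6%, 30.3% and 31.2% of alpha chain transcript in the knockout, against 21.9%, 29.9% and 23.6% in the wild type. Lama4 made up 37.9%, 39.6% and 36.1% in the knockout, against 44.1%, 41.7% and 41.2% in the wild type. Neither pair of groups overlapped, although wild-type replicate 2 lay within 1 percentage point of the knockout for Lama2. Without the composition trend, Lama2 held 29.6%, 29.6% and 29.3% in the knockout and 24.1%, 29.1% and 26.0% in the wild type, and Lama4 37.1%, 39.5% and 36.3% in the knockout and 45.5%, 41.2% and 41.6% in the wild type. Lama5 held 30.3% ± 1.48 in the knockout and 31.5% ± 3.68 in the wild type (SD, n = 3 each), and without the composition trend 32.1% ± 1.85 in the knockout and 29.8% ± 1.603 in the wild type, the other way round. The beta chains were split alike, with Lamb2 at 70.5% ± 2.52 in the knockout and 72.9% ± 2.23 in the wild type (SD, n = 3 each).

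**Figure D5:**
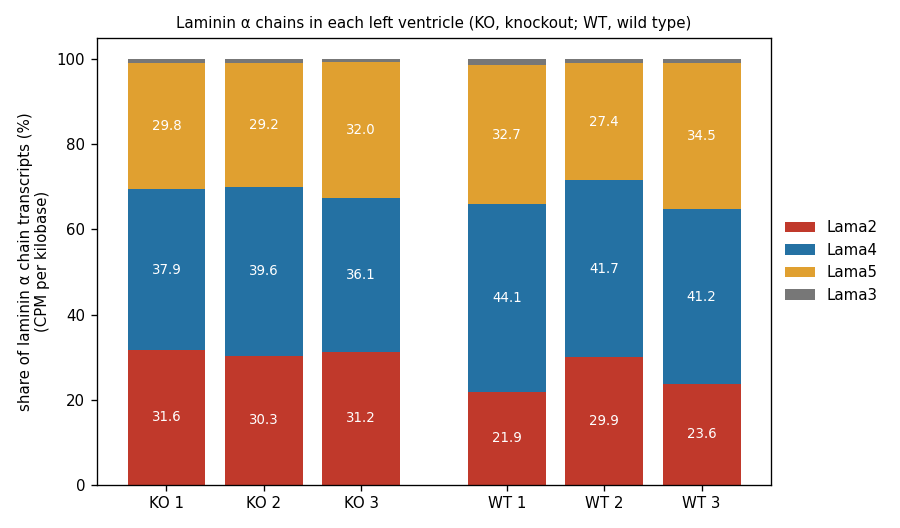
Share of each laminin alpha chain in the summed alpha chain level (CPM per kilobase) of each left ventricle, knockout libraries left and wild-type libraries right. Lama2 holds 30.3% to 31.6% in the knockout and 21.9% to 29.9% in the wild type, and Lama4 36.1% to 39.6% in the knockout and 41.2% to 44.1% in the wild type.

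The proteins that crosslink the basement membrane showed overlapping groups throughout. Nid1 was at 216, 227 and 228 CPM in the knockout, against 204, 234 and 165 CPM in the wild type (0.15, SE 0.14, edgeR adjusted p = 0.566). Hspg2, which encodes perlecan, was at 475, 661 and 632 CPM in the knockout, against 832, 541 and 640 CPM in the wild type. The groups overlapped, with the highest value in wild-type replicate 1 and the lowest in knockout replicate 1 (-0.19, SE 0.17, edgeR adjusted p = 0.572). Nid2 was at 25.6, 39.0 and 34.9 CPM in the knockout, against 27.7, 24.1 and 33.6 CPM in the wild type (0.22, SE 0.18, edgeR adjusted p = 0.515). Agrn, the heparan sulfate proteoglycan that binds dystroglycan, was at 91.4, 119 and 118 CPM in the knockout, against 120, 91.6 and 102 CPM in the wild type (0.063, SE 0.15, edgeR adjusted p = 0.839). Its sign turned without knockout replicate 2 or wild-type replicate 2.

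Dag1, which encodes both subunits of dystroglycan, the receptor for laminin alpha 2 and agrin, was at 415, 377 and 471 CPM in the knockout, against 395, 313 and 295 CPM in the wild type. Wild-type replicate 1 lay between the knockout libraries (0.33, SE 0.14, edgeR adjusted p = 0.233). Without the composition trend Dag1 was at 0.30 (SE 0.10, edgeR adjusted p = 0.245), and the groups then did not overlap.

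Between integrin and actin, Lims1 was the 1 linker at an unadjusted edgeR p under 0.05 as counted. Without the composition trend it was Tln1 instead, at a lower level in the knockout. Lims1 encodes PINCH1, the adaptor that joins ILK to growth factor signalling, and was at 140, 139 and 147 CPM in the knockout, against 96.5, 133 and 110 CPM in the wild type. The groups did not overlap (0.33, SE 0.14, edgeR adjusted p = 0.219), but its transcript had the lowest GC content of the members, 40.7%, and the value was 0.081 without the composition trend. Ilk, the kinase-like core of the complex, was at 77.3, 86.5 and 77.3 CPM in the knockout, against 89.2, 92.0 and 101 CPM in the wild type. Those groups did not overlap either (-0.23, SE 0.12, edgeR adjusted p = 0.313), and the value was -0.057 without the composition trend. In GENCODE M21, 76.7% of Ilk's exonic bases are shared with Taf10 on the opposite strand, so without strand reads of both genes cannot be told apart. Parva was at -0.0060 (SE 0.13).

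Tln1, the talin that switches integrins on in most cells, was at 169, 216 and 212 CPM in the knockout, against 283, 229 and 212 CPM in the wild type. Knockout replicate 2 lay above wild-type replicate 3 (-0.28, SE 0.15, edgeR adjusted p = 0.310). Without the composition trend Tln1 was at -0.26 (edgeR adjusted p = 0.262), and the groups then did not overlap. Tln2, the talin of mature muscle costameres, was at 103, 104 and 115 CPM in the knockout, against 116, 98.5 and 81.4 CPM in the wild type (0.13, SE 0.14, edgeR adjusted p = 0.644), and its sign turned without the composition trend. Vcl, which encodes vinculin, was at 150, 144 and 152 CPM in the knockout, against 141, 137 and 127 CPM in the wild type. Those groups did not overlap, by a narrow margin (0.13, SE 0.11, edgeR adjusted p = 0.538), whereas without the composition trend Vcl was at 0.0050 and they did. In GENCODE M21, 25.5% of the exonic bases of Vcl are shared with Ap3m1 on the opposite strand.

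Other genes of the same system were counted from lists. Of 26 measured further basement membrane genes, 1 was higher and 7 were lower at an unadjusted p under 0.05, with a median of -0.14. In the fit without the composition trend none was higher and 3 were lower (median -0.18). Fbln2, a fibulin that binds laminin and perlecan, was at -0.67 (SE 0.13, edgeR adjusted p = 0.0581) and passed without the composition trend (-0.56, edgeR adjusted p = 0.0434). Vwa1, which binds perlecan, was at -0.61 (SE 0.14), and the proteoglycan gene Bgn at -0.86 (SE 0.23), with its highest level, 330 CPM, in wild-type replicate 2. All 10 fibroblast markers were below 0 (median -0.40), and their part in the counts of these lists was not tested. Of 44 measured focal adhesion genes and integrin regulators 1 was higher and 8 were lower, with Pdlim7 (-0.59, SE 0.14), the actin polymerisation factor gene Vasp (-0.52, SE 0.14) and Kank2 (-0.49, SE 0.14) having the smallest p-values. Once the trend was removed the 3 were at -0.22, -0.26 and -0.38. In that fit 1 gene of the list was higher and 10 were lower, where 6.52% and 6.97% of all genes were.

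All 28 genes listed for the dystrophin-glycoprotein complex and the glycosylation of dystroglycan were measured, and 4 were higher and 2 lower, or 2 higher and 1 lower without the composition trend. Sgcd, which encodes delta-sarcoglycan, a subunit of the sarcoglycan complex beside dystroglycan, was at 33.0, 17.7 and 30.4 CPM in the knockout, against 8.11, 16.6 and 7.37 CPM in the wild type. Its groups did not overlap, and knockout replicate 2 lay close to wild-type replicate 2 (1.34, SE 0.36, edgeR adjusted p = 0.127). Of 21 other integrin ligands, 2 were higher and 6 lower, with Emilin1 at -0.47 (SE 0.12), Ccn2 at -0.98 (SE 0.27) and Mfge8 at -0.39 (SE 0.12). With the composition trend removed, none of the ligands was higher and 3 were lower, and the 3 named were at -0.20, -0.97 and -0.15. Of 17 other laminin receptors and integrin partners none was higher and 2 were lower, the heparan sulfate proteoglycan gene Sdc1 (-0.63, SE 0.19) and the pericyte gene Cspg4 (-0.54, SE 0.19). The laminin receptor gene Bcam was at -0.36 (SE 0.17), and at -0.00056 without the composition trend. Its removal left the count of this list at none higher and 2 lower. As counted, none of the genes on these lists passed edgeR's test over all genes. The shares of all genes higher and lower at an unadjusted p under 0.05 were 10.2% and 8.94% as counted. Without the composition trend those shares were 6.52% and 6.97%.

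In GRCm38, Lama2 lies on chromosome 10 from 26980036 to 27619758, Itgb2 on chromosome 10 from 77530252 to 77565708 and Lims1 on chromosome 10 from 58323466 to 58424691. Itga4 lies on chromosome 2 from 79255426 to 79333123, Itga1 on chromosome 13 from 114953096 to 115101964, and Itgax on chromosome 7 from 128129547 to 128150657. Itgb5 lies on chromosome 16 from 33829665 to 33949338, Itga11 on chromosome 9 from 62677826 to 62783982 and Itga5 on chromosome 15 from 103344286 to 103366763. Dag1 and Lamb2 lie near each other on chromosome 9, from 108204634 to 108263958 and from 108479736 to 108490530. Each is a protein-coding gene and each value covers the reads assigned to the whole gene.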

How the data were processed

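The authors deposited raw read counts per gene in 1 table for 6 libraries, 3 knockout and 3 wild type, per the file headers. The submitters' processing notes name mm10 and DESeq2. The aligner was not given in the sources used here, nor were the counting tool, its annotation and its strand setting. RNA came from individual mice per the labels, so the spread is between mice. The table holds 13384 genes with at least 12 counts in every library, and 170 of them carry no symbol; filterByExpr removed 0.

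The comparison was fitted on the whole table with edgeR 4.0.16 (R 4.3.3; TMM, robust quasi-likelihood test, two-sided, no covariate), with Benjamini-Hochberg adjustment over all genes. The common biological coefficient of variation was 0.166. Levels are TMM-scaled CPM, and per kilobase they were divided by the longest protein-coding transcript of GENCODE M21. GC content and length were available for 97.9% of genes and for all 41 members. The composition trend was removed with an offset per library from splines with 4 degrees of freedom. The scripts were tested on simulated data.

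In all, 16 alternatives were run: RLE and upper quartile scaling, no filter and 1 CPM in 3 libraries, DESeq2 1.42.0, limma 3.58.1 (voom), no robust step, the replicate block, the composition trend with and without the block, and each library left out. Values in every library are given for the 4 members of each role with the smallest p and for 11 core members. Of each pathway list up to 3 genes with the smallest p are named; a few genes that these rules would name are not reported here. Members and lists were chosen with earlier results of these data known, so none is independent evidence. Replicate numbers do not pair the mice by label.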

Additional observations from a re-analysis of the deposited data

How the results depend on the processing

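The members called over all genes numbered 0 in every alternative except DESeq2 (1) and the fits that left out a library (0 to 5, the 5 without wild-type replicate 2). At an unadjusted p under 0.05, 4 members were higher without the composition trend, and leaving out libraries gave 4 to 10 higher and 1 to 6 lower. Members whose groups did not overlap then numbered 8 to 13 higher and 3 to 7 lower. Fewer libraries separate more easily. No shares of all genes are given for the unadjusted and non-overlap counts with a library left out. Those counts therefore cannot be compared with all genes and are not read as a result about the members. The median of the members was -0.012 without the composition trend and -0.0055 with the replicate block added. Among the members with values in every library, 3 turned sign without the trend and with the block added: Itga7 (0.059 and 0.059), Lama4 (-0.051 and -0.053) and Tln2 (-0.012 and -0.0099); 3 others, Itgav, Itga8 and Itgb6, turned as well. Leaving out libraries moved Agrn between -0.016 and 0.18 and Lama4 between -0.0097 and 0.15; the cause was not tested. Deviations from the group mean correlated at -0.12, -0.076 and -0.15 in same-numbered libraries, and at -0.029 to 0.16 in differently numbered ones. With 3 libraries a group, whose deviations are tied to each other, these values cannot settle whether mice were paired. The replicate block alone called 0 members. Of the alternatives for named members, 417 kept direction and side of the threshold, 6 passed it and 9 turned sign. With 3 mice a group and standard errors up to 0.32, small differences could not be detected. The laminin shares and their alternatives were chosen after seeing the data, and Lama2 kept the larger share in the knockout in each.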

Other observations

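Itgb4, Itgb3 and Itga3 share chromosome 11 with cytoglobin, the deleted gene, and differ in their distance from it. Itgb4 lies 0.637 Mb away (log2 fold change -0.53, SE 0.30), Itgb3 11.98 Mb away (-0.72, SE 0.28) and Itga3 21.6 Mb away (-0.19, SE 0.18). Their log2 fold changes were all below 0, as were 6766 of the 13384 genes, and none of the 3 passed edgeR's test. Without the composition trend Itgb4 was at -0.39, Itgb3 at -0.77 and Itga3 at -0.051. The part of the distance in these values was not tested.

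Marker sums of smooth muscle and of the heart surface also lay lower in the knockout, whereas those of endothelium and pericytes overlapped. All 6 smooth muscle markers were below 0 as counted (median -0.33). Their sums were 268 to 339 CPM in the knockout, against 508, 343 and 361 CPM in wild-type replicates 1, 2 and 3. Without the composition trend Smtn was at 0.10 and the others stayed below 0. Of 4 measured mesothelial markers 3 were below 0 (median -1.23). Those sums were 13.5 to 19.5 CPM in the knockout, against 49.4, 26.8 and 23.6 CPM in wild-type replicates 1, 2 and 3. Wild-type replicate 1, with the highest atrial muscle sum, was the highest library in both. Of 6 pericyte markers 4 were below 0 and 2 above, and the sums of the 6 overlapped at 555 to 580 CPM in the knockout and 545 to 644 CPM in the wild type. Of 10 endothelial markers 8 were below 0 and 2 above (median -0.10). Endothelial sums were 1441 to 1854 CPM in the knockout and 1623 to 1935 CPM in the wild type. No gene of these lists passed edgeR's test.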
